A study of Mus musculus with 40 samples.

Results

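The transcripts of 9 genes that NF-kB is known to induce, several of which restrain NF-kB in turn, were followed in mouse aorta after angiotensin II (Ang-II). The 9 genes were Nfkbia, Nfkbiz, Tnfaip3, Zfp36, Ier3, Rel, Relb, Icam1, and Vcam1. They were taken by symbol from 17402 genes listed for a genotype experiment and 15399 genes listed for a cyclosporin A (CsA) experiment. All 9 were listed in both experiments and all 9 passed the filter on low values in both.

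The genotype experiment asked which aortic responses to Ang-II need calcineurin in smooth muscle cells. The CsA experiment asked which responses to Ang-II stay unchanged under a drug that blocks the phosphatase activity of calcineurin. In the genotype experiment, male mice on a C57BL/6J background with floxed CnB1 alleles (Ppp3r1, the calcineurin regulatory subunit) either lacked the Myh11-CreERT2 transgene (Cn-Ctl) or carried it (SM-Cn-/-), so that recombination was directed to smooth muscle cells. These are the genotypes the labels give, while the study's methods also count mice with unfloxed CnB1 and the transgene among Cn-Ctl, so that an effect of Cre alone and of the deletion cannot be told apart where controls lacked Cre. Every mouse of both genotypes received tamoxifen, 1 mg a day for 5 days at an age of 10-12 weeks, and was used 6 weeks later, untreated or with an osmotic minipump that delivered Ang-II at 1 µg/kg/min for 2, 6, or 24 h. There were 3 libraries in each of these groups except untreated Cn-Ctl and Cn-Ctl at 24 h, with 2 each. By the study's methods, 1 untreated Cn-Ctl replicate was left out because it lay far from the other 2 in a principal component analysis. The spread of the remaining untreated Cn-Ctl libraries may therefore be understated. In the CsA experiment, male C57BL/6J wild-type mice either had a minipump with CsA (5 mg/kg/day) for 5 days (CsA) or no pump at that stage (WT), and were then left without Ang-II or given it at the same rate for 2 or 24 h, with 3 libraries in each of 6 groups. CsA and the presence of its pump cannot be told apart. The same holds for Ang-II and its pump in both experiments, as the study's methods describe control mice operated on without a pump. Each library pooled 3 aortas stripped of adventitia and perivascular tissue. Ang-II-treated Cn-Ctl, WT, and CsA mice were used only where systolic blood pressure had risen past a set value, whereas all treated SM-Cn-/- mice were used.

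NF-kB is a family of dimeric transcription factors held inactive in the cytoplasm by IkB proteins. Stimuli that activate the IKK kinases lead to degradation of IkB, the dimer enters the nucleus, and its early targets include its own inhibitors, which makes the response transient. In the vessel wall, NF-kB is known for inducing cytokines and the adhesion molecules that capture leukocytes.

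Among the inhibitors, Nfkbia (ENSMUSG00000021025, chr12:55489410-55492647, minus strand, GRCm38) encodes IkBa, the inhibitor that is degraded and resynthesized. Nfkbiz (ENSMUSG00000035356, chr16:55811375-55838899, minus) encodes IkBz, an atypical nuclear IkB protein that modulates transcription of selected NF-kB targets. Tnfaip3 (ENSMUSG00000019850, chr10:19000910-19015657, minus) encodes A20, a ubiquitin-editing enzyme that terminates signaling upstream of IKK. Zfp36 (ENSMUSG00000044786, chr7:28376784-28380253, minus) encodes tristetraprolin, which promotes the decay of mRNAs that bear AU-rich elements, among them cytokine mRNAs. Ier3 (ENSMUSG00000003541, chr17:35821684-35822923, plus) is an immediate early gene linked to cell survival. Of the factors themselves, Rel (ENSMUSG00000020275, chr11:23736847-23770970, minus) encodes c-Rel and Relb (ENSMUSG00000002983, chr7:19606217-19629438, minus) encodes the RelB subunit of the noncanonical branch. The adhesion molecules Icam1 (ENSMUSG00000037405, chr9:21015985-21028817, plus) and Vcam1 (ENSMUSG00000027962, chr3:116109949-116129688, minus) bind leukocyte integrins. Annotated antisense genes overlap Zfp36 (Gm44710), Icam1 (Gm47079), and Vcam1 (Gm43109), and because the strandedness of the libraries is not given in the sources used here, reads of these pairs cannot be told apart.

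Promoter stretches of 5 members are shown because their letters hold short matches to NF-kB sites upstream of the start. They were read from RefSeq promoter windows (GRCm38.p6; 250 bases before to 50 after the annotated start), which existed for 6 of the 9 genes. Capitals mark matches to GGNNTTTCC on either strand, of which GGAATTTCC is the stricter spelling, and every sequence is written 5′ to 3′ on the strand of its gene. Each stretch ends at the last base before the RefSeq start, which is not always the 5′ end of the GENCODE gene given above. In Nfkbia the starts coincide, in Icam1 the RefSeq start lies 45 bases upstream, and in Rel, Ier3, and Tnfaip3 it lies 1, 29, and 247 bases inside the gene, so the Tnfaip3 stretch falls within the longer GENCODE gene and the last 29 bases of the Ier3 stretch are GENCODE exon. Nfkbia lies at chr12:55492648-55492807 (minus), Tnfaip3 at chr10:19015411-19015540 (minus), Ier3 at chr17:35821553-35821712 (plus), Rel at chr11:23770970-23771099 (minus), and Icam1 at chr9:21015780-21015939 (plus).
Nfkbia: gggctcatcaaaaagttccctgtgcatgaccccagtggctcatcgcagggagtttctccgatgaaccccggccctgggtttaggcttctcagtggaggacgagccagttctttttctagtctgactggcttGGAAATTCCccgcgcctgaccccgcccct
Tnfaip3: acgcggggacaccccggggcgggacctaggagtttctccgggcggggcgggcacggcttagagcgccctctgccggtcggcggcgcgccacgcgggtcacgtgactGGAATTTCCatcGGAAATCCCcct
Ier3: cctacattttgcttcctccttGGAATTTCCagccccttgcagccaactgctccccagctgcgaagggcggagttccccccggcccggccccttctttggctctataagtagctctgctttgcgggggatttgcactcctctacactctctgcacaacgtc
Rel: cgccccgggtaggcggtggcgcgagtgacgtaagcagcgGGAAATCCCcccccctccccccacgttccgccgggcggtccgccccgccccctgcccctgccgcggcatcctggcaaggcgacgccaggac
Icam1: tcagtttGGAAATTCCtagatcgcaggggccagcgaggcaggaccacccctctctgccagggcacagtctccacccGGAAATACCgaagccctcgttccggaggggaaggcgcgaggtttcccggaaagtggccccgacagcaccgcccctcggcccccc

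GGAATTTCC was found in the windows of 4 of these 6 genes, at -29 in Nfkbia, -24 in Tnfaip3, -139 in Ier3, and -153 in Icam1, counted from the start to the first base of the match. The same letters were present in 104 of 32851 RefSeq promoter windows, or 0.317%. The looser GGNNTTTCC, which includes these matches, was found in 5 of the 6 windows, adding -12 in Tnfaip3, -84 in Icam1, -91 in Rel, and -178 in Nfkbia, and in 5.82% of all windows. Tnfaip3 thus held a pair of neighboring matches close to its RefSeq start, and Zfp36 held neither spelling. TGGAAA, the core letters of sites for NFAT, the calcineurin-regulated factor, were found in 4 of the 6 windows. These letters are common, with a match in 21.4% of all windows. The 4 windows were those with GGAATTTCC, and in each a TGGAAA match shared bases with it. These matches began at -30 in Nfkbia, -20 in Tnfaip3, -135 in Ier3, and -154 in Icam1, and are not separate from the NF-kB letters. A further match in Nfkbia, at -174, shared bases with GGNNTTTCC at -178. Only Tnfaip3 held TGGAAA apart from both spellings, at -204 and -182. The AP-1 letters TGANTCA were found in Tnfaip3 alone among the 6, against 7.81% of all windows, and the degenerate NF-kB consensus in 4 of the 6, against 4.51%. Spellings were searched on both strands and chosen after several had been tried, and a match describes letters in a window, not a bound site.

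The deposited values are a normalized read count, here called signal, that the authors scaled to the size of each library. Totals of signal were not equal. They were higher at 2 h than untreated in WT (1040808 to 1154874 against 877583 to 939727), CsA (994178 to 1153694 against 907723 to 949677), and Cn-Ctl (1105205 to 1179362 against 957507 to 963159). In SM-Cn-/- they overlapped (938859 to 1027236 against 919723 to 967779). Other normalizations are among the alternatives given below. Libraries held 2.73 to 10.25 M recovered reads in the genotype experiment (median 6.52 M) and 18.98 to 38.9 M reads in the CsA experiment (median 22.8 M). Reads per member ranged from 3, for Rel in SM-Cn-/- at 6 h replicate 3, to 5263, for Zfp36. The targeted gene Ppp3r1 did not separate the genotypes: its signal was 45.7 to 134 in Cn-Ctl (median 85.6, n = 10) and 41.8 to 118 in libraries labelled SM-Cn-/- (median 76.3, n = 12), and gene totals do not show whether the floxed part was deleted. By the study's methods, recombination of CnB1 was tested by PCR on aortic tissue, SM-Cn-/- mice in which the deletion was not found were left out, and so were CsA mice whose thymus did not show the block of NFAT dephosphorylation. Summed over 6 smooth muscle markers (Acta2, Myh11, Tagln, Cnn1, Smtn, and Actg2), signal was 20469 to 49083 in the genotype experiment and 15857 to 34943 in the CsA experiment, all with the markers of medial smooth muscle abundant. In whole tissue, fewer cells of a type and less RNA per cell cannot be told apart.

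In untreated WT aorta, levels compared per kb of exon put Nfkbia highest among the members at a mean signal of 35.9 per kb, followed by Ier3 at 28.7 and Zfp36 at 17.4. Vcam1 (5.05), Nfkbiz (4.46), Relb (3.80), and Icam1 (3.27) formed a middle group, and Tnfaip3 (1.08) and Rel (0.868) were the lowest members per kb. The ranges over 3 libraries were apart between Zfp36 and Vcam1, between Icam1 and Tnfaip3, and between Tnfaip3 and Rel, and overlapped between the other neighbors in this order. After 2 h of Ang-II, the order per kb had Ier3 highest at 123, then Nfkbia at 88.7, Zfp36 at 74.3, and Nfkbiz at 19.9, each apart from its neighbors, while Tnfaip3 was the lowest member at 0.890.

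In WT aorta, 5 of the 9 members rose after 2 h of Ang-II and none fell. Nfkbiz, Zfp36, and Ier3 rose 4.40-fold, 4.41-fold, and 4.30-fold, and Nfkbia and Rel 2.46-fold and 2.01-fold. These 5 stand beside 21.4% of all genes tested that passed in either direction (limma, Benjamini-Hochberg adjusted p under 0.05). The median log2 difference was 1.01 over the 9 members and 0.02 over all genes tested.

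Nfkbia signal was 58.2, 59.3, and 56.1 in the untreated WT libraries, 138, 140, and 151 after 2 h, and 94.4, 93.6, and 133 after 24 h. The 3 groups did not overlap at 2 h against untreated or at 24 h against untreated, and the log2 differences were 1.30 ± 0.12 (SE, adjusted p = 2.3e-06) and 0.86 ± 0.12 (adjusted p = 6.3e-05, limma). Nfkbiz signal went from 18.7, 20.7, and 27.7 to 110, 80.0, and 110 at 2 h and stood at 47.7, 41.1, and 31.0 at 24 h. Every 2 h library was above every 24 h library, and every 24 h library was above every untreated one. The log2 difference of Nfkbiz was 2.14 ± 0.17 at 2 h (adjusted p = 6.6e-07) and 0.82 ± 0.17 at 24 h (adjusted p = 0.0016). For Tnfaip3, the deubiquitinase of the set, signal was 7.98, 7.81, and 7.68 without Ang-II, 7.26, 5.84, and 6.19 at 2 h, and 11.2, 8.46, and 11.1 at 24 h. Its 2 h libraries were all below the untreated ones without passing the test (log2 difference -0.27, 95% interval -0.58 to 0.05, adjusted p = 0.23, limma). At 24 h all 3 Tnfaip3 values were above the untreated ones, also without passing (0.36, 95% interval 0.04 to 0.67, adjusted p = 0.074; 0.0337 without WT 24 h replicate 2, and 0.0337 to 0.212 over the alternatives tried). Of the 4 members with GGAATTTCC in their promoter windows, Nfkbia, Ier3, and Icam1 lay above their untreated ranges at 2 h and Tnfaip3 below. The differences of Icam1 and Tnfaip3 did not pass. The part of these letters in the response was not tested.

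Zfp36 signal was 45.2, 51.9, and 83.6 in untreated WT aorta, 253, 250, and 271 at 2 h, and 86.9, 76.8, and 65.8 at 24 h. The 2 h libraries stood far above the rest, and the 24 h and untreated libraries overlapped. The log2 difference at 2 h was 2.14 ± 0.18 (adjusted p = 7.5e-07, limma). Ier3 signal was 26.8, 28.5, and 42.0 without Ang-II, 158, 122, and 137 at 2 h, and 87.8, 77.4, and 48.8 at 24 h. Its groups did not overlap at either hour against untreated, with log2 differences of 2.10 ± 0.25 at 2 h (adjusted p = 2e-05) and 1.11 ± 0.25 at 24 h (adjusted p = 0.0025). Ier3 thus passed at both hours and Zfp36 at 2 h alone.

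Rel, the c-Rel subunit, was low but changed at 2 h: signal was 6.13, 6.28, and 7.03 without Ang-II, 13.2, 11.5, and 16.3 at 2 h, and 9.05, 9.55, and 6.36 at 24 h. All 2 h libraries were above all others, and the log2 difference at 2 h was 1.01 ± 0.24 (adjusted p = 0.0063, limma). Relb signal was 15.7, 13.8, and 14.7 without Ang-II, 15.9, 17.4, and 19.0 at 2 h, and 20.7, 21.8, and 19.5 at 24 h. Relb did not pass at 2 h (0.23, 95% interval -0.04 to 0.50, adjusted p = 0.22) although its groups did not overlap, and rose at 24 h (0.47 ± 0.13, adjusted p = 0.0087, limma).

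Icam1 signal was 18.7, 10.2, and 13.9 in untreated WT aorta, 18.9, 23.7, and 20.5 at 2 h, and 43.4, 49.9, and 56.4 at 24 h. The 3 groups did not overlap, yet the 2 h difference did not pass (log2 0.58, 95% interval 0.08 to 1.08, adjusted p = 0.096, limma). Without untreated WT replicate 1 it did (adjusted p = 0.0413), and over the alternatives tried the adjusted p ranged from 0.0413 to 0.359. At 24 h Icam1 rose 3.49-fold (1.80 ± 0.24, adjusted p = 3.4e-05), the largest change of a member at that hour. Vcam1 signal was 56.5, 31.9, and 45.9 without Ang-II, 43.9, 47.5, and 44.7 at 2 h, and 61.2, 75.7, and 88.5 at 24 h. The untreated values surrounded those at 2 h (95% interval of the log2 difference -0.39 to 0.51). Vcam1 passed at 24 h (0.76 ± 0.21, adjusted p = 0.011, limma), but not without untreated WT replicate 2 or WT 24 h replicate 3 (highest adjusted p 0.0686, with 0.00249 to 0.0686 over the alternatives).

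At 24 h, 6 of the 9 members were higher than in untreated WT aorta, beside 35% of all genes tested, and the median log2 difference was 0.76 against 0.00 over all genes. Between 2 and 24 h, 8 of the 9 members changed, beside 36.2% of all genes, 3 upward and 5 downward. Icam1 (log2 difference 1.23 ± 0.24), Vcam1 (0.71 ± 0.21), and Tnfaip3 (0.63 ± 0.15) were higher at 24 h than at 2 h. Zfp36 (-1.75 ± 0.18), Nfkbiz (-1.32 ± 0.17), Ier3 (-0.99 ± 0.25), Rel (-0.69 ± 0.24), and Nfkbia (-0.43 ± 0.12) were lower (limma). The calls of Nfkbia (without WT 24 h replicate 1 or 2, adjusted p up to 0.0595), Rel (without WT 2 h replicate 1 or 3 or 24 h replicate 3, up to 0.145), and Vcam1 (without 24 h replicate 3, 0.0742) each depended on single libraries. Over all alternatives, these adjusted p ranged from 0.000574 to 0.189, 0.0225 to 0.145, and 0.0035 to 0.0742. Summed signal of 10 leukocyte markers was 124 to 222 at 24 h against 44.8 to 64.8 without Ang-II, with 7 of 9 tested markers higher, and endothelial markers summed to 723 to 859 against 404 to 685, with 2 of 8 higher. Their part in the 24 h values of Icam1, Vcam1, and the other members was not tested. At 2 h neither list had a marker that passed (endothelium 614 to 658, leukocytes 42.2 to 63.6).

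**Figure D1:**
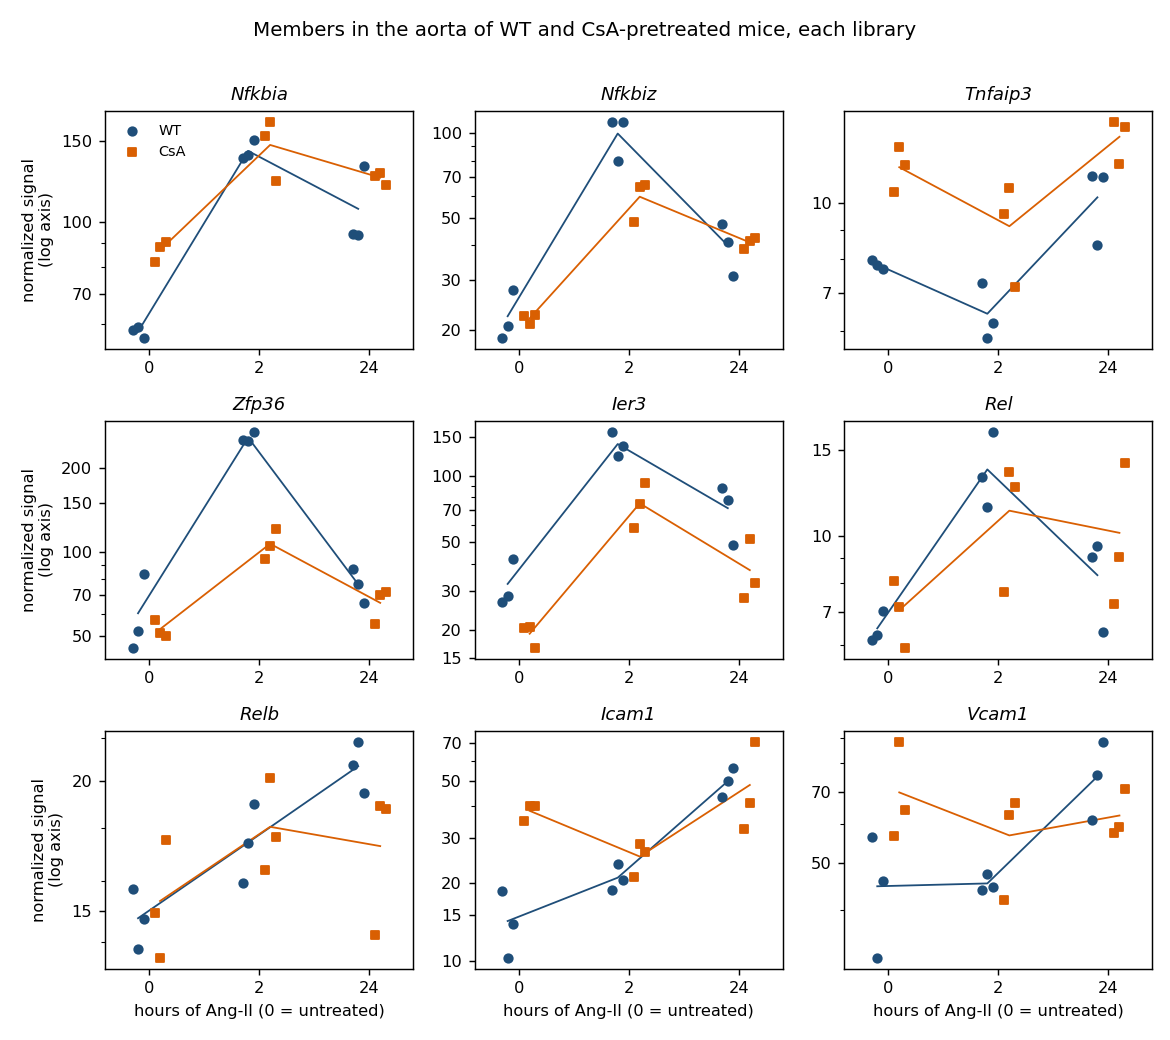
Signal of each of the 9 members (vertical log axes, normalized read count) against hours of Ang-II in WT and CsA libraries; each point is 1 library and lines join group means of 3. Zfp36 sits at 250 to 271 in WT at 2 h and at 94.5 to 121 in CsA at 2 h, and Icam1 starts at 10.2 to 18.7 in WT and at 34.9 to 40.0 in CsA.

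In Cn-Ctl aorta, the control genotype of the other experiment, 4 of the 9 members rose after 2 h of Ang-II, 3 after 6 h, and 1 after 24 h. They stand beside 6.25%, 3.97%, and 5.62% of all genes tested at these hours, in either direction. Nfkbiz, Ier3, Zfp36, and Icam1 rose at 2 h, Zfp36, Icam1, and Ier3 at 6 h, and Icam1 at 24 h. The median log2 differences over the members were 1.08, 0.79, and 0.67, with 0.01, 0.00, and -0.02 over all genes. Between hours, 1 member changed from 2 to 6 h (1.67% of all genes), 1 from 6 to 24 h (1.27%), and 2 from 2 to 24 h (7.38%).

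Nfkbiz signal was 18 and 31.1 in the 2 untreated Cn-Ctl libraries, 93.8, 122, and 87.8 at 2 h, 40.9, 47.2, and 40.3 at 6 h, and 36.1 and 60.7 at 24 h. Every 2 h library was above every other, with a log2 difference from untreated of 2.06 ± 0.31 (adjusted p = 0.00012, limma), and Nfkbiz fell between 2 and 6 h (-1.22 ± 0.27, adjusted p = 0.023). It was lower at 24 h than at 2 h (-1.09 ± 0.31, adjusted p = 0.033). The fall to 6 h lost its call without Cn-Ctl 2 h replicate 1 or 2 or 6 h replicate 1 or 3 (adjusted p 0.0667 to 0.12, with 0.00108 to 0.12 over all alternatives), and the 24 h against 2 h difference lost it without 2 h replicate 1 or 2 or either 24 h library (0.0559 to 0.236, with 0.0132 to 0.236 over all). Nfkbia signal was 75.7 and 89.7 without Ang-II, 185, 170, and 102 at 2 h, 124, 121, and 194 at 6 h, and 96.5 and 118 at 24 h. All treated Nfkbia values were above both untreated ones, but the 2 h difference did not pass (0.84, 95% interval 0.13 to 1.54, adjusted p = 0.17, limma). Tnfaip3 signal was 7.21 and 8.67 without Ang-II and between 4.02 and 6.66 in all 8 treated libraries, which lay below both untreated ones without passing at 2 h (-0.65, 95% interval -1.47 to 0.17, adjusted p = 0.41).

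Zfp36 signal was 64.6 and 52.3 in untreated Cn-Ctl aorta, 123, 238, and 176 at 2 h, 156, 158, and 96.1 at 6 h, and 54.3 and 46.0 at 24 h. All libraries at 2 and 6 h exceeded all libraries at 0 and 24 h. The log2 differences from untreated were 1.56 ± 0.28 at 2 h (adjusted p = 0.00092) and 1.19 ± 0.28 at 6 h (adjusted p = 0.016), and Zfp36 fell from 6 to 24 h (-1.41 ± 0.28, adjusted p = 0.014) and from 2 to 24 h (-1.78 ± 0.28, adjusted p = 0.0005, limma). Ier3 signal was 41.0 and 42.6 without Ang-II, 136, 222, and 153 at 2 h, 111, 65.0, and 110 at 6 h, and 83.7 and 86.9 at 24 h. No treated Ier3 library reached down to the untreated level, and the differences were 1.98 ± 0.31 at 2 h (adjusted p = 0.00017) and 1.14 ± 0.31 at 6 h (adjusted p = 0.036). The calls at 6 h were fragile. Zfp36 lost its call without either untreated library or 6 h replicate 1 or 2 (adjusted p 0.0516 to 0.221, with 0.000636 to 0.221 over all alternatives), and Ier3 without either untreated library or 6 h replicate 1 or 3 (0.099 to 0.226, with 0.00546 to 0.226 over all). The 6 to 24 h fall of Zfp36 lost its call without 6 h replicate 2 or 24 h replicate 3 (0.0636 to 0.188, with 0.000112 to 0.239 over all).

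Icam1 signal was 9.69 and 11.4 in untreated Cn-Ctl aorta, 15.7, 27.5, and 27.5 at 2 h, 27.5, 26.6, and 18.7 at 6 h, and 46.1 and 39.7 at 24 h. All treated libraries were above both untreated ones, and both 24 h libraries above all others. The log2 differences were 1.08 ± 0.31 at 2 h (adjusted p = 0.037), 1.15 ± 0.31 at 6 h (adjusted p = 0.035), and 1.98 ± 0.34 at 24 h (adjusted p = 0.0013, limma). Leaving out either untreated library, 2 h replicate 2, or 2 h replicate 3 ended the 2 h call (adjusted p 0.118 to 0.252, with 0.00644 to 0.252 over all alternatives), and either untreated library or 6 h replicate 1 or 2 ended the 6 h call (0.0888 to 0.266, with 0.00513 to 0.266 over all). The 24 h call held under each alternative tried, with adjusted p up to 0.0289. Vcam1 signal was 55.3 and 47.4 without Ang-II, 55.1, 63.9, and 324 at 2 h, 52.1, 76.7, and 43.1 at 6 h, and 70.7 and 56.8 at 24 h. A single library, 2 h replicate 3, held the value of 324, and the 2 h log2 difference was 1.03 ± 0.49 with it (adjusted p = 0.26) and 0.21 without it (adjusted p = 0.82). The same library had the highest leukocyte marker sum of its group, 167 against 43.8 and 75.9, and the highest fibroblast marker sum, 2301 against 1457 and 1729. It also had the highest endothelial sum, 585 against 330 and 529, and the lowest smooth muscle sum, 27132 against 35234 and 33184. The part of cell content in its Vcam1 value was not tested.

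Rel signal was 8.37 and 2.65 in untreated Cn-Ctl aorta, 10.3, 17.4, and 18.4 at 2 h, 6.05, 7.42, and 8.93 at 6 h, and 9.78 and 6.34 at 24 h. The 2 h libraries were above both untreated ones, and the difference of 1.54 ± 0.51 did not pass (95% interval 0.49 to 2.60, adjusted p = 0.078, limma). It was 2.29 without untreated replicate 2 (adjusted p = 0.041) and 0.80 without untreated replicate 3 (adjusted p = 0.703), so the untreated level of Rel was not settled by 2 libraries. Relb signal was 7.36 and 11.4 without Ang-II, 10.5, 12.4, and 8.34 at 2 h, 7.92, 11, and 14.3 at 6 h, and 11.9 and 22.1 at 24 h. Its 2 and 6 h libraries overlapped the untreated ones, and both 24 h libraries were above them.

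**Figure D2:**
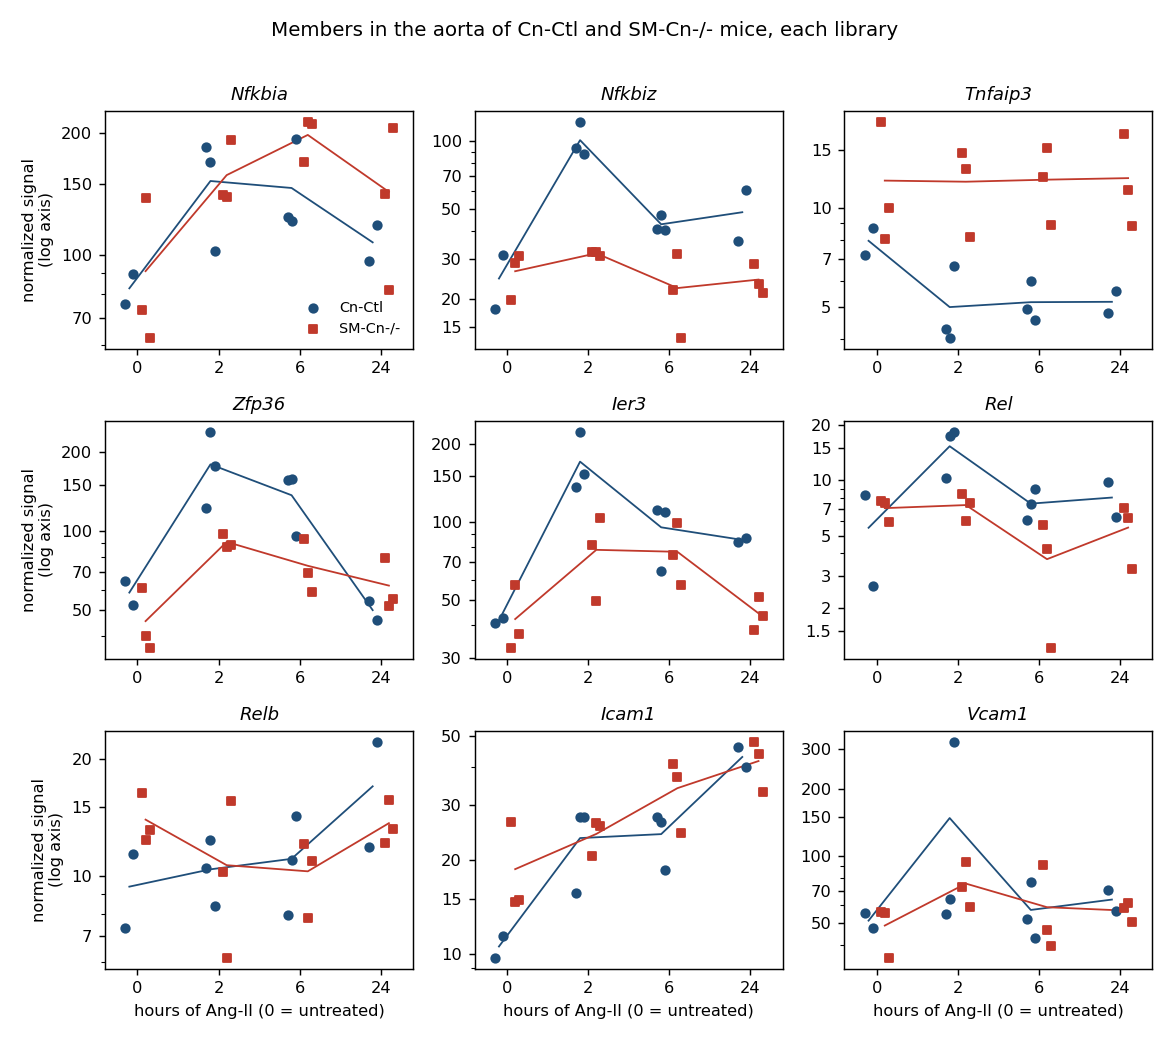
Signal of each of the 9 members (vertical log axes, normalized read count) against hours of Ang-II in Cn-Ctl libraries and libraries labelled SM-Cn-/-; each point is 1 library and lines join group means of 2 or 3. Nfkbiz at 2 h sits at 87.8 to 122 in Cn-Ctl and at 30.8 to 32.4 in SM-Cn-/-, and the Vcam1 value of 324 belongs to 1 Cn-Ctl library.

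In the libraries labelled SM-Cn-/-, 1 of the 9 members rose after Ang-II at each hour: Zfp36 at 2 h, Nfkbia at 6 h, and Icam1 at 24 h. They stand beside 1.13%, 2.35%, and 0.791% of all genes tested, in either direction, and the median log2 differences over the members were 0.41, 0.20, and 0.10, with -0.01, -0.03, and 0.00 over all genes. Each of these 3 calls was lost when single libraries were left out. Between hours none of the 9 members passed from 2 to 6 h (1.42% of all genes did), 6 to 24 h (0.305%), or 2 to 24 h (3.66%). At these steps 2, 1, and 3 members had an unadjusted p under 0.05 (limma), beside 2961, 1480, and 2881 of the 14412 genes tested. For the members, edgeR called 0 each time, and DESeq2 called 0, 0, and 2.

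Nfkbiz, the member that rose most in Cn-Ctl, had a signal of 19.8, 28.7, and 30.9 in untreated SM-Cn-/- aorta, 32.2, 32.4, and 30.8 at 2 h, 21.8, 31.6, and 13.4 at 6 h, and 28.5, 23.2, and 21.1 at 24 h. The 2 h libraries lay around the highest untreated value, and the log2 difference was 0.29 (95% interval -0.29 to 0.86, adjusted p = 0.68, limma). All 3 were below all 3 Cn-Ctl libraries at 2 h. Nfkbiz was 3.12-fold lower in SM-Cn-/- than in Cn-Ctl at 2 h (log2 difference -1.64 ± 0.27, adjusted p = 0.00081), and this call held under each alternative tried, with adjusted p up to 0.0105. At 6 and 24 h the Nfkbiz libraries of the genotypes again did not overlap, without passing (-1.01, adjusted p = 0.062, and -0.94, adjusted p = 0.085). The 6 h difference passed without SM-Cn-/- replicate 2 (0.0255, with 0.0255 to 0.363 over all alternatives) and the 24 h one without Cn-Ctl replicate 2 (0.0365, with 0.0233 to 0.67 over all).

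Nfkbia signal was 73.1, 138, and 62.3 in untreated SM-Cn-/- aorta, 141, 139, and 193 at 2 h, 170, 214, and 211 at 6 h, and 141, 81.8, and 207 at 24 h. All 2 h and 6 h libraries were above all untreated ones, where replicate 2 stood apart at 138. The 2 h difference did not pass (0.86, 95% interval 0.23 to 1.49, adjusted p = 0.21), and the 6 h one did (1.20 ± 0.30, adjusted p = 0.037, limma). Without untreated replicate 1 or 3 or 6 h replicate 2 or 3, the 6 h call was lost (0.108 to 0.185, with 0.0112 to 0.185 over all alternatives). Nfkbia thus reached its values in SM-Cn-/- at 2 h within the range of Cn-Ctl, 102 to 185, except for the library at 193.

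Tnfaip3 signal was 18.3, 8.04, and 9.99 in untreated SM-Cn-/- aorta, 14.7, 13.2, and 8.16 at 2 h, 12.5, 15.3, and 8.85 at 6 h, and 16.8, 11.4, and 8.79 at 24 h. These libraries were above every Cn-Ctl library of the same hour at 2, 6, and 24 h, while the untreated groups overlapped. None of the differences passed, with log2 values of 1.18 at 2 h (95% interval 0.45 to 1.91, adjusted p = 0.069), 1.14 at 6 h (adjusted p = 0.11), and 1.13 at 24 h (adjusted p = 0.11, limma). The 2 h difference passed without Cn-Ctl replicate 3 or SM-Cn-/- replicate 3 (0.0416 to 0.0477, with 0.0217 to 0.272 over all alternatives). In the same comparisons, the endothelial marker Pecam1 was higher in SM-Cn-/- at 2 h (0.95 ± 0.25, adjusted p = 0.031), and the 8 endothelial markers were all positive with a median of 0.49, summing to 719 to 907 against 330 to 585. At 24 h they summed to 1198 to 1237 against 523 to 541, with 3 of 8 higher. Across libraries, Pecam1 was also the gene most like Tnfaip3, with correlations of log2 signal of 0.70 in 22 libraries and 0.66 in 18. The part of endothelial content in the Tnfaip3 values was not tested.

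Zfp36 signal was 60.7, 39.9, and 36 in untreated SM-Cn-/- aorta, 97.2, 86.9, and 88.8 at 2 h, 93.4, 69.3, and 58.8 at 6 h, and 79.2, 52.0, and 55.2 at 24 h. The 2 h libraries were above all untreated ones (1.03 ± 0.25, adjusted p = 0.048, limma) and below all Cn-Ctl libraries at 2 h (-0.92 ± 0.25, adjusted p = 0.042). The rise lost its call without untreated replicate 2 or 3 or any 2 h library (0.0884 to 0.316, with 0.0102 to 0.316 over all alternatives). The genotype difference lost it without Cn-Ctl replicate 2 or 3 or any SM-Cn-/- library (0.0868 to 0.269, with 0.00283 to 0.269 over all). Ier3 signal was 32.8, 57, and 37.2 without Ang-II, 81.7, 49.5, and 103 at 2 h, 74.4, 98.8, and 57.1 at 6 h, and 38.4, 51.7, and 43.6 at 24 h. Its 2 h rise did not pass (0.85, 95% interval 0.29 to 1.42, adjusted p = 0.16), and its 2 h libraries were all below those of Cn-Ctl (-1.15 ± 0.27, adjusted p = 0.017, limma). Without Cn-Ctl replicate 2 or SM-Cn-/- replicate 2 the latter call was lost (0.131 to 0.167, with 0.00211 to 0.167 over all alternatives).

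Rel signal was 7.69, 7.53, and 5.95 in untreated SM-Cn-/- aorta, 8.48, 6.01, and 7.51 at 2 h, 5.69, 4.23, and 1.21 at 6 h, and 7.05, 6.26, and 3.27 at 24 h. All 2 h values were below those of Cn-Ctl at 2 h, without passing (-0.99, 95% interval -1.93 to -0.05, adjusted p = 0.32). Relb signal was 16.3, 12.4, and 13.1 without Ang-II, 10.2, 6.15, and 15.6 at 2 h, 12.1, 7.81, and 10.9 at 6 h, and 12.1, 15.7, and 13.2 at 24 h. Relb overlapped between the genotypes at each hour of Ang-II and was above both Cn-Ctl values without it.

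Icam1 signal was 26.5, 14.7, and 14.9 in untreated SM-Cn-/- aorta, 20.6, 26.4, and 25.8 at 2 h, 40.7, 37.0, and 24.5 at 6 h, and 48.1, 43.8, and 33.2 at 24 h. The untreated values were above both untreated Cn-Ctl values (0.75, 95% interval 0.11 to 1.38, adjusted p = 0.83), and the genotypes overlapped at each hour of Ang-II. Icam1 rose by 24 h (1.17 ± 0.27, adjusted p = 0.044, limma), a call lost without untreated replicate 2 or 3 or any 24 h library (0.0733 to 0.205, with 0.00766 to 0.205 over all alternatives). Vcam1 signal was 55.9, 55.5, and 34.9 without Ang-II, 72.2, 94.2, and 59.1 at 2 h, 90.9, 46.5, and 39.4 at 6 h, and 58.3, 61.9, and 50.4 at 24 h. Its 2 h libraries were above all untreated ones, and the other hours overlapped them. Without Ang-II, endothelial markers summed to 601 to 820 in SM-Cn-/- and 356 to 465 in Cn-Ctl, with all 8 positive and none past the test. Their part in the untreated Icam1 values was not tested.

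Set side by side at 2 h, Nfkbiz, Ier3, and Zfp36 were lower in libraries labelled SM-Cn-/- than in Cn-Ctl and no member was higher, beside 3.71% of all genes tested in either direction. The median log2 difference was -0.50 over the members and 0.00 over all genes. Leaving out single libraries left 1 to 3 of these calls. Marker sums moved with the genotype too. At 2 h the smooth muscle markers summed to 24941 to 31231 in SM-Cn-/- and 27132 to 35234 in Cn-Ctl, with 5 of 6 negative and 1 past the test, and the endothelial sums, given above with Tnfaip3, did not overlap. Smooth muscle sums were lower in SM-Cn-/- without overlap when untreated (20469 to 23870 against 27989 to 28500), at 6 h (22708 to 28393 against 31630 to 33533), and at 24 h (23938 to 26630 against 27244 to 49083). Their part in the member differences was not tested. Without Ang-II, none of the 9 members passed (0.0139% of all genes did), and edgeR and DESeq2 on recovered reads each called 0. An unadjusted p under 0.05 (limma) was reached there by 1 member, beside 757 of the 14412 genes tested. At 6 and 24 h, limma and edgeR called 0 and DESeq2 called 2 at either hour (1.98% and 4.95% of all genes called by limma). At an unadjusted p under 0.05 there were 4 and 3 members, beside 2012 and 2559 of the 14412 genes.

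Whether the 2 h response itself differed between the genotypes was tested as an interaction. None of the 9 members passed (0.513% of all genes did), edgeR called 0, and DESeq2 called 1. An unadjusted p under 0.05 (limma) was reached by 3 members, beside 1148 of the 14412 genes tested. The interaction was negative for 7 of the 9 members, while 48.2% of all genes tested were positive. Members that vary together, such as Nfkbiz and Ier3 (correlation 0.78 over 22 libraries), do not give separate signs. All members also share the same untreated Cn-Ctl libraries. Nfkbiz had the largest value, -1.77 ± 0.41 (95% interval -2.63 to -0.92, adjusted p = 0.055, limma), which passed without untreated SM-Cn-/- replicate 1 (0.0479) and ranged from 0.00369 to 0.554 over all alternatives. The values were -1.50 ± 0.68 for Rel (adjusted p = 0.58), -1.13 ± 0.41 for Ier3 (adjusted p = 0.39), and -0.54 ± 0.38 for Zfp36 (adjusted p = 0.79). No member passed the interaction at 6 h (0.0624% of all genes) or 24 h (0.513%), where limma, edgeR, and DESeq2 called 0. At either hour 2 members had an unadjusted p under 0.05 (limma), beside 873 and 1586 of the 14412 genes tested.

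**Figure D3:**
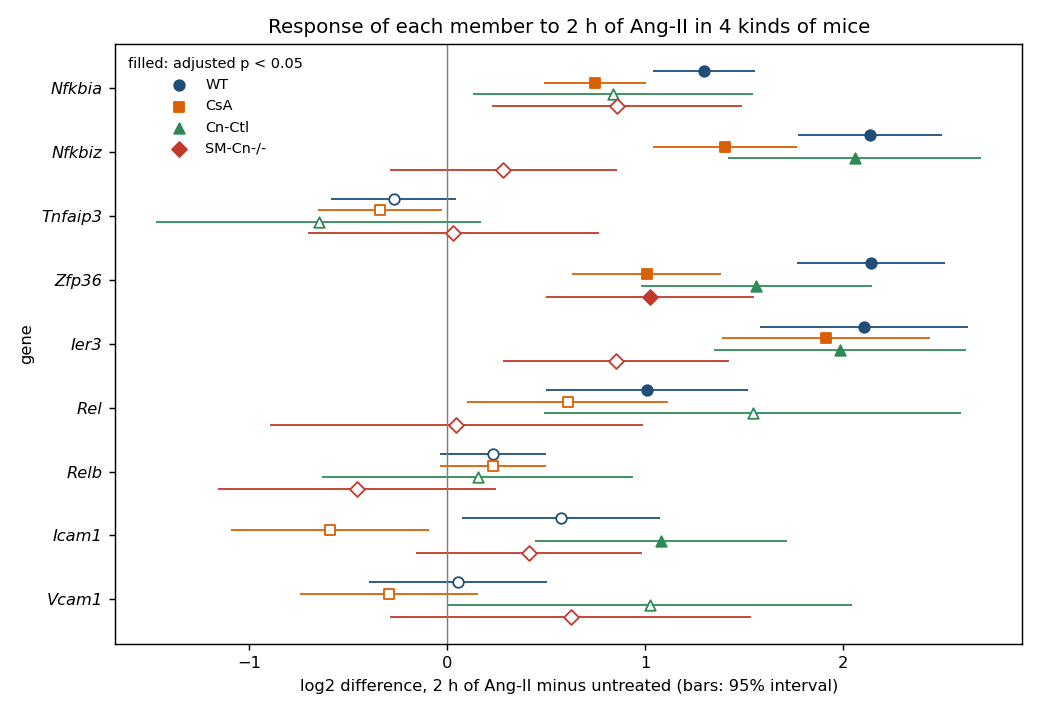
Log2 difference between 2 h of Ang-II and no Ang-II for each of the 9 members (horizontal axis) in WT, CsA, Cn-Ctl, and SM-Cn-/-; points are limma estimates, filled where the adjusted p is under 0.05, and bars 95% intervals. Nfkbiz lies at 2.14 in WT, 2.06 in Cn-Ctl, 1.40 in CsA, and 0.29 in SM-Cn-/-.

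Before any Ang-II, CsA-pretreated aorta already differed from WT aorta in 5 of the 9 members, beside 25.2% of all genes tested in either direction. Icam1, Nfkbia, Tnfaip3, and Vcam1 were higher, and Ier3 was lower. After 2 h of Ang-II, Zfp36 and Nfkbiz were lower than in WT and no member was higher (1.33% of all genes). After 24 h, Ier3 alone among the 9 was lower (5.56%).

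Icam1 signal was 34.9, 40.0, and 39.9 in untreated CsA aorta, 21.2, 28.5, and 26.6 at 2 h, and 32.5, 41.2, and 71.0 at 24 h. Untreated CsA libraries were all above untreated WT libraries, which were at 10.2 to 18.7, by 2.69-fold (1.43 ± 0.24, adjusted p = 0.0011, limma). At 2 h the CsA libraries lay below the untreated CsA libraries without passing (-0.59, 95% interval -1.09 to -0.09, adjusted p = 0.087), whereas in WT they lay above. Icam1 was then higher at 24 h than at 2 h (0.84 ± 0.24, adjusted p = 0.022), a call lost without CsA 2 h replicate 1 or 24 h replicate 3 (0.0709 to 0.0952, with 0.00189 to 0.117 over all alternatives). The interaction at 24 h passed for Icam1 (-1.55 ± 0.33, adjusted p = 0.013) and held under each alternative tried, with adjusted p up to 0.0406. At 24 h itself, 32.5 to 71.0 in CsA overlapped 43.4 to 56.4 in WT.

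Vcam1 signal was 56.7, 88.4, and 64.0 in untreated CsA aorta, 41.9, 62.6, and 66.2 at 2 h, and 57.5, 59.3, and 70.8 at 24 h. The untreated values were above those of untreated WT aorta (0.65 ± 0.21, adjusted p = 0.036, limma), a call lost without untreated WT replicate 2 or 3 or untreated CsA replicate 2 or 3 (0.0651 to 0.18, with 0.0177 to 0.18 over all alternatives). The CsA groups overlapped across the hours. The interaction at 24 h was -0.90 ± 0.30 and did not pass (adjusted p = 0.069, with 0.0334 to 0.168 over all alternatives). It passed without untreated WT replicate 1, WT 24 h replicate 1, or CsA 24 h replicate 3 (lowest adjusted p 0.0392).

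Untreated CsA aorta carried more endothelial and leukocyte marker RNA than untreated WT aorta. All 8 endothelial markers were higher (median 1.22, summing to 1071 to 1246 against 404 to 685), as were 7 of 9 leukocyte markers tested (median 1.04, summing to 98.1 to 126 against 44.8 to 64.8) and 5 of 5 adipose markers (median 2.24). All 6 smooth muscle markers were lower (median -0.76, summing to 15857 to 17903 against 25042 to 34381). Adipose markers summed to 2276 to 3986 in untreated CsA against 357 to 664 in untreated WT, without overlap. Skeletal or heart muscle markers (Myh6, Myl2, Acta1, Ckm, and Tnnt3) summed to 73.8 to 1170 against 30.2 to 283, with overlap. Within CsA, the 2 h libraries had 7 of 8 endothelial markers below untreated with none past the test (median -0.37, summing to 871 to 1080) and 2 leukocyte markers lower (summing to 69.6 to 76.7). Icam1 and the endothelial and leukocyte sums were higher in untreated CsA than in untreated WT aorta. At 2 h in CsA, leukocyte sums were below the untreated CsA ones without overlap, and endothelial sums overlapped them. The lower Icam1 at 2 h in CsA did not pass. The part of cell content in the values of Icam1, Vcam1, Nfkbia, and Tnfaip3 was not tested.

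**Figure D4:**
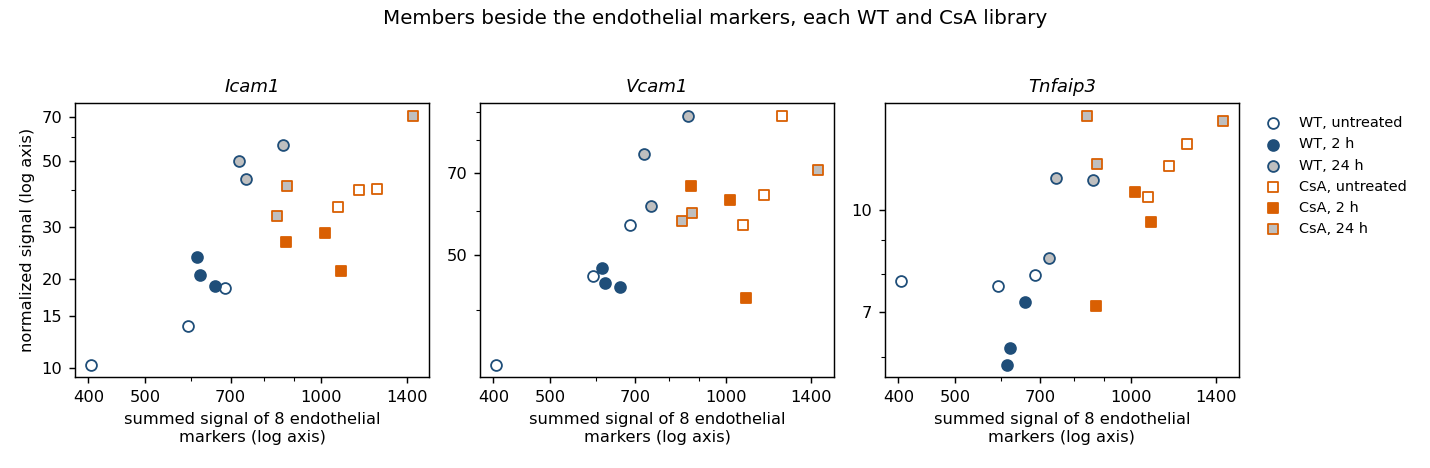
Signal of Icam1, Vcam1, and Tnfaip3 against the summed signal of 8 endothelial markers in each WT and CsA library (log axes, normalized read count), with circles for WT, squares for CsA, and the fill giving the time. Untreated CsA libraries lie at an endothelial sum of 1071 to 1246 and untreated WT libraries at 404 to 685, with Icam1 at 34.9 to 40.0 and 10.2 to 18.7.

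Nfkbia signal was 82.0, 88.3, and 90.5 in untreated CsA aorta, 154, 165, and 123 at 2 h, and 126, 128, and 120 at 24 h. The inhibitor started above WT (0.58 ± 0.12, adjusted p = 0.0036, limma) and rose 1.68-fold at 2 h (0.75 ± 0.12, adjusted p = 0.0007) and 1.44-fold at 24 h (0.52 ± 0.12, adjusted p = 0.016). All treated libraries were above all untreated CsA ones, and at 2 h they overlapped WT at 138 to 151. The 24 h call was lost without untreated CsA replicate 1 or 24 h replicate 1 or 2 (0.0566 to 0.0678, with 0.000856 to 0.0678 over all alternatives). Tnfaip3 signal was 10.5, 12.5, and 11.6 without Ang-II, 9.58, 10.6, and 7.16 at 2 h, and 13.8, 11.7, and 13.6 at 24 h. Its untreated values were above WT (0.53 ± 0.15, adjusted p = 0.017), which was lost without untreated WT replicate 3 or CsA replicate 2 or 3 (0.0521 to 0.0594, with 0.00811 to 0.147 over all alternatives). The 2 h difference was -0.34 (95% interval -0.65 to -0.02, adjusted p = 0.12), and Tnfaip3 was higher at 24 h than at 2 h (0.51 ± 0.15, adjusted p = 0.028), a call lost without CsA 2 h replicate 3 or 24 h replicate 1 or 3 (0.0782 to 0.117, with 0.0119 to 0.132 over all).

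Zfp36 signal was 57.2, 51.2, and 50.03 in untreated CsA aorta, 94.5, 105, and 121 at 2 h, and 55.2, 70.2, and 71.6 at 24 h. It rose 2.01-fold at 2 h (1.01 ± 0.18, adjusted p = 0.0012, limma), with all 2 h libraries above all others of the CsA groups. The level reached was 2.41-fold below that of WT at 2 h (-1.27 ± 0.18, adjusted p = 0.0043), and this call held under each alternative tried, with adjusted p up to 0.0407. Zfp36 was lower at 24 h than at 2 h (-0.70 ± 0.18, adjusted p = 0.013), lost without 24 h replicate 1 (0.0582, with 0.00242 to 0.0582 over all alternatives). Nfkbiz signal was 22.4, 20.9, and 22.7 without Ang-II, 48.4, 64.5, and 65.8 at 2 h, and 38.9, 41.4, and 42.6 at 24 h. It rose 2.65-fold at 2 h (1.40 ± 0.17, adjusted p = 7.4e-05) and 1.84-fold at 24 h (0.88 ± 0.17, adjusted p = 0.0061), and every 2 h library was below every WT library at 2 h (-0.74 ± 0.17, adjusted p = 0.045). That difference lost its call without WT 2 h replicate 1 or 3 or CsA 2 h replicate 1 or 2 (0.057 to 0.225, with 0.00262 to 0.225 over all alternatives).

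Ier3 signal was 20.5, 20.8, and 16.7 in untreated CsA aorta, 57.9, 74.6, and 92.7 at 2 h, and 28.0, 51.5, and 32.8 at 24 h. It rose 3.76-fold at 2 h (1.91 ± 0.25, adjusted p = 0.00012, limma) and 1.86-fold at 24 h (0.90 ± 0.25, adjusted p = 0.035), from an untreated level below that of WT (-0.71 ± 0.25, adjusted p = 0.046). All treated libraries were above all untreated ones. At 2 h every CsA library was below every WT library without passing (-0.90, 95% interval -1.43 to -0.38, adjusted p = 0.08), and at 24 h the groups overlapped with a difference that passed (-0.93 ± 0.25, adjusted p = 0.04). The 24 h rise, the untreated difference, and the 24 h difference were each lost when single libraries were left out. Without any untreated CsA library or CsA 24 h replicate 2, the rise had an adjusted p of 0.0657 to 0.157 (0.00316 to 0.157 over all alternatives). Without untreated WT replicate 2 or 3 or any untreated CsA library, the untreated difference had 0.0676 to 0.197 (0.0131 to 0.197 over all), and without WT 24 h replicate 1 or 2 or CsA 24 h replicate 1 or 3, the 24 h difference had 0.101 to 0.179 (0.00601 to 0.179 over all).

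Rel signal was 8.10, 7.15, and 5.91 in untreated CsA aorta, 7.69, 13.5, and 12.6 at 2 h, and 7.27, 9.07, and 14.1 at 24 h. The groups overlapped, and the 2 h difference of 0.61 (95% interval 0.10 to 1.12, adjusted p = 0.081, limma) passed without CsA 2 h replicate 1, the library at 7.69 (adjusted p = 0.0204, with 0.0204 to 0.273 over all alternatives). Relb signal was 14.9, 13.5, and 17.5 without Ang-II, 16.4, 20.1, and 17.6 at 2 h, and 14.2, 18.9, and 18.8 at 24 h, and its groups overlapped at both hours.

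Counted over the set, 4 of the 9 members rose in CsA aorta at 2 h (20.2% of all genes in either direction, median log2 difference 0.61 against -0.02 over all genes) and 3 at 24 h (8.98%, median 0.30). Between 2 and 24 h, 5 changed (18%), with Icam1 and Tnfaip3 higher and Zfp36, Ier3 (-1.02 ± 0.25), and Nfkbiz (-0.52 ± 0.17) lower. Ier3 lost this call without CsA 24 h replicate 1 (adjusted p 0.0518, with 0.00136 to 0.0631 over all alternatives) and Nfkbiz without 2 h replicate 2 or 3 or any 24 h library (0.078 to 0.139, with 0.0214 to 0.139 over all). Compared with WT at 2 h, 8 of 8 endothelial markers were positive with none past the test (median 0.73, summing to 871 to 1080 against 614 to 658), and smooth muscle markers had 6 of 6 negative with 1 past it (median -0.63). Adipose sums (983 to 2919 against 513 to 900) and leukocyte sums (69.6 to 76.7 against 42.2 to 63.6) were also higher in CsA without overlap, and fibroblast sums overlapped. Zfp36 and Nfkbiz were lower in the same libraries, and the part of cell content in that was not tested.

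The interaction of CsA with the 2 h response was negative for all 9 members, and none passed (0.146% of all genes did). Over all genes tested, 49.4% were positive. Some members vary together, such as Nfkbiz and Zfp36 (correlation 0.93 over 18 libraries), so their signs are not separate results. An unadjusted p under 0.05 (limma) was reached by 4 members, beside 1897 of the 13731 genes tested. For the members, edgeR called 0, and DESeq2 called 1. The values were -1.17 ± 0.33 for Icam1 (adjusted p = 0.16), -1.13 ± 0.25 for Zfp36 (adjusted p = 0.081), -0.73 ± 0.24 for Nfkbiz (adjusted p = 0.21), and -0.55 ± 0.17 for Nfkbia (adjusted p = 0.18, limma). Zfp36 passed without untreated WT replicate 3, the WT library at 83.6 (adjusted p = 0.0142, with 0.00779 to 0.249 over all alternatives). At 24 h Icam1 was the member that passed (9.42% of all genes did).

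Beyond the 9 members, 81 other genes were counted as a pathway list, of which 72 were tested with the genotypes and 74 with CsA. The list held factors, kinases, receptors, ligands, regulators, and targets. It also held other adhesion molecules, such as Pecam1, and genes that share the Zfp36 or Ier name, such as Ier2 and Ier5. Its shares are therefore not those of NF-kB genes alone. At 2 h of Ang-II, 20 of 74 were higher and 6 lower in WT (median log2 difference 0.26), 18 higher and 7 lower in CsA (0.00), 8 of 72 higher in Cn-Ctl (0.26), and 4 higher in SM-Cn-/- (0.06). The shares called were 35.1%, 33.8%, 11.1%, and 5.56%, beside 21.4%, 20.2%, 6.25%, and 1.13% of all genes tested.

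In WT at 2 h, the list's rises included Ptgs2, the inducible cyclooxygenase (2.85 ± 0.44), the immediate early genes Ier5 (2.81 ± 0.26) and Ier2 (1.51 ± 0.15), Bcl3, an atypical nuclear IkB protein (1.65 ± 0.36), Bcl2l1, which encodes the survival protein Bcl-xL (1.65 ± 0.12), and the receptor Tlr4 (1.50 ± 0.15). Its falls included the kinase Ikbke (-0.77 ± 0.15), the A20-binding protein Tnip1 (-0.44 ± 0.12), and the adaptor Tradd (-0.43 ± 0.13). Tnip1 lost its call without untreated WT replicate 3 or WT 2 h replicate 1 or 3 (adjusted p up to 0.068 against 0.017), and Tradd without untreated replicate 1 or 3 or 2 h replicate 1 (up to 0.14 against 0.028). In CsA at 2 h, Ptgs2 (2.90 ± 0.44), Ier5 (1.77 ± 0.26), Gadd45b (1.57 ± 0.24), Bcl2l1 (1.17 ± 0.12), and Tlr4 (1.06 ± 0.15) rose, and Irf1 (-1.59 ± 0.31) and Tlr2 (-0.75 ± 0.20) fell, the latter not without untreated CsA replicate 2 (adjusted p up to 0.07 against 0.014).

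In Cn-Ctl at 2 h, Ptgs2 (4.45 ± 0.55), Ier5 (2.98 ± 0.35), Tlr4 (2.18 ± 0.45), and Bcl2l1 (2.01 ± 0.29) rose under each alternative tried. Il6 (2.39 ± 0.71), Bcl3 (1.82 ± 0.53), Birc2 (0.88 ± 0.23), and Csf1 (0.74 ± 0.22) passed with all libraries, but each lost its call when either untreated library or single 2 h libraries were left out (adjusted p up to 0.24, 0.41, 0.15, and 0.25). In SM-Cn-/- at 2 h, Bcl2l1 (1.85 ± 0.26) and Csf1 (1.24 ± 0.20) rose under each alternative, and Birc3 (1.15 ± 0.23) and Birc2 (0.94 ± 0.20), inhibitors of apoptosis, lost their calls without single libraries (adjusted p up to 0.11 and 0.13). Compared between the genotypes at 2 h, Ier5 (-2.21 ± 0.31) and Ptgs2 (-2.17 ± 0.49) were lower in SM-Cn-/-, and Csf1 (0.82 ± 0.20) and Pecam1 were higher, so 4 of 72 passed (5.56%). Ier5 held under each alternative, Ptgs2 lost its call without replicate 3 of either genotype (adjusted p up to 0.073 against 0.012), and Csf1 and Pecam1 when any of 4 single libraries was left out (up to 0.12 and 0.26 over all alternatives). Between CsA and WT at 2 h, 1 of 74 passed, Ier2 (-0.81 ± 0.15, adjusted p = 0.024), which was lost without WT replicate 1 or 3 or CsA replicate 1 (up to 0.13 over all alternatives).

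For each member, the 3 protein-coding genes most like it were taken as those with the highest smaller value of the correlations of log2 signal over the 22 genotype libraries and over the 18 CsA and WT libraries, among 13424 genes. Libraries share treatments, depth, and cell content, so these values are descriptions. Nfkbiz was most like Pde4b (0.91 and 0.92), Rcan1 (0.94 and 0.90), and Fam107b (0.89 and 0.88). Zfp36 was most like Btg2 (0.93 and 0.96), Hipk3 (0.88 and 0.91), and Sgk1 (0.87 and 0.89), and Ier3 was most like Sdc4 (0.92 and 0.95), Xirp1 (0.89 and 0.94), and Ppp1r15a (0.89 and 0.97). Icam1 was most like Ece1 (0.90 and 0.95), the endothelin-converting enzyme, the adhesion molecule Selp (0.88 and 0.94), and the Fc receptor gene Fcgr3 (0.86 and 0.93). Nfkbia was most like Arrdc2 (0.87 and 0.84), Map3k6 (0.82 and 0.95), and Fam46b (0.79 and 0.89). The correlations were lower for the rest, with Ubqln1 for Rel (0.79 and 0.84), Slc9a5 for Relb (0.68 and 0.68), and Nid1 for Vcam1 (0.68 and 0.66).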

How the data were processed

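Aortic RNA was converted with oligo-dT priming, and the submitters' processing notes name Bowtie 0.12.7, RSEM 1.16, and GRCm38. The signal the authors deposited equals reads plus 0.5 over a scaled library size in M reads, and 100% of values gave whole reads (tolerance 0.02), which were used for edgeR and DESeq2. Protein-coding genes (GENCODE) with signal of at least 1 in at least 2 libraries were tested, 14412 and 13731 genes. Each table was fitted with limma 3.58.1 (R 4.3.3) on log2(signal + 0.5), which understates changes of low genes, with all groups in 1 model, an intensity trend, and Benjamini-Hochberg adjustment in each of 30 comparisons at a threshold of 0.05. The log2 differences are on this scale and intervals are 95%. The 2 tables were fitted separately and their levels were not compared. The code was tested on simulated data. Alternatives were quantile normalization, pseudocounts, filters, edgeR 4.0.16, DESeq2 1.42.0, other fits, a replicate block, and leaving out each library. Replicate pairs differed by more than sampling noise (lowest chi-square per degree of freedom 6.47). Libraries are pools of 3 aortas, and p-values measure only their spread. The members and lists were chosen with earlier results of these data known. All 9 members are named. Other pathway genes are named where they passed at 2 h or where a result turns on them.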

Additional observations from a re-analysis of the deposited data

Results flagged for a closer look

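These results drew attention because the effect of Ang-II differed between groups by a test of the difference itself, an interaction in limma. Among the 9 members this was so for Icam1, whose difference between 24 h and no Ang-II was smaller in CsA than in WT by 1.55 on the log2 scale (-1.55, adjusted p = 0.013). In untreated CsA aorta the Icam1 level was already above that of WT, while the levels at 24 h overlapped. The endothelial and leukocyte marker sums were also higher in untreated CsA aorta, and their part in the interaction was not tested.

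In the pathway list, 8 of 74 genes passed the same interaction, or 10.8%, a share near the 9.42% of all genes tested, and all 8 were negative. In the same interaction 5 of 8 endothelial markers and 5 of 9 leukocyte markers tested were also negative and past the test (medians -0.87 and -1.30). Their part in these values was not tested, and Sele, Selp, and Itgb2 are themselves endothelial or leukocyte genes. They were Bcl3 (-2.76, adjusted p = 0.0068), Sele (-2.54, adjusted p = 0.019), Il6 (-2.29, adjusted p = 0.047), Selp (-1.85, adjusted p = 0.038), Itgb2 (-1.77, adjusted p = 0.011), Bcl2a1b (-1.62, adjusted p = 0.049), Tnfrsf1b (-1.46, adjusted p = 0.010), and Myd88 (-0.71, adjusted p = 0.045). In WT at 24 h, Bcl3 (3.07), Il6 (2.98), Sele (2.81), Selp (2.06), and Itgb2 (2.00) had risen. Bcl3, Tnfrsf1b, and Itgb2 kept the interaction call under each alternative tried. Sele lost it without WT 24 h replicate 2 (adjusted p = 0.06), and Il6, Selp, Bcl2a1b, and Myd88 lost it when any of several single libraries was left out (adjusted p up to 0.28, 0.1, 0.18, and 0.13).

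In the genotype experiment, the immediate early gene Ier5 had a smaller 2 h difference in libraries labelled SM-Cn-/- than in Cn-Ctl (-2.63, adjusted p = 0.0076, limma). Ier5, listed for its Ier name, was the only call among the 72 listed genes tested. It lost the call without untreated Cn-Ctl replicate 3 (adjusted p = 0.07).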

How the results depend on the processing

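Of 90 member differences given, 58 passed the threshold. Of these, 29 passed under every one of 11 alternative settings and every library left out, and 29 lost the call at least once. Of 32 that did not pass, 13 passed under at least 1 alternative. None of 1566 alternative values changed sign. Counts of members past the threshold were recomputed for all 30 comparisons. Apart from leaving out libraries, 19 counts moved by more than 1.5 times under at least 1 setting. For Cn-Ctl at 6 h, 3 members became 1 without the intensity trend and 0 with only the groups compared. For Cn-Ctl at 24 h, 1 became 2 with DESeq2. For SM-Cn-/- at 2 h, 1 became 0 with quantile normalization, a pseudocount of 0, all listed genes, edgeR, or no trend. For SM-Cn-/- at 6 h, 1 became 0 with edgeR, no trend, or only the groups compared, and 2 with DESeq2. For SM-Cn-/- at 24 h, 1 became 0 without the trend or with only the groups compared. For the genotypes at 2 h, 3 became 1 with quantile normalization or no trend. At 6 h, 0 became 1 with the replicate block and 2 with DESeq2, and at 24 h, 0 became 1 with only the groups compared and 2 with DESeq2. The 2 h genotype interaction went from 0 to 1 with a mean of at least 5, DESeq2, or only the groups compared. Between hours in Cn-Ctl, 1 became 0 from 2 to 6 h with quantile normalization or no trend, 1 became 0 from 6 to 24 h with only the groups compared, and from 2 to 24 h, 2 became 1 with these 3 settings and 4 with DESeq2. From 2 to 24 h in SM-Cn-/-, 0 became 2 with DESeq2. For CsA against WT, 5 became 3 untreated without the trend, 2 became 1 at 2 h with quantile normalization, no trend, the block, or only the groups compared, and 1 became 0 at 24 h with no trend, the block, or only the groups compared. The CsA interactions went from 0 to 1 at 2 h and from 1 to 2 at 24 h with DESeq2. From 2 to 24 h in CsA, 5 became 3 with quantile normalization and 1 with only the groups compared. The causes were not tested.

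Leaving out single libraries moved 19 counts by more than 1.5 times. The ranges were 0 to 2 members for Cn-Ctl at 6 h, 1 to 2 at 24 h, 0 to 1 for SM-Cn-/- at 2 h, 0 to 2 at 6 h, 0 to 1 at 24 h, 1 to 3 for the genotypes at 2 h, 0 to 1 at 6 h, 0 to 1 at 24 h, and 0 to 1 for either 2 h interaction. They were 0 to 1 for Cn-Ctl from 2 to 6 h, 0 to 1 from 6 to 24 h, and 1 to 2 from 2 to 24 h. They were 1 to 3 for CsA at 24 h, 2 to 5 for CsA against WT untreated, 1 to 3 at 2 h, 0 to 2 at 24 h, 1 to 2 for the 24 h CsA interaction, and 1 to 4 for CsA from 2 to 24 h. Where 1 library remained in a group, it was assumed to vary like the others.

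Replicate numbers are shared across groups in the labels, and whether they mark paired or batched libraries was not established. The median correlation of deviations from group means between same-numbered libraries was 0.059 in the genotype experiment (-0.374 to 0.339, with 27 of 71 pairs over 0.1) and -0.028 in the CsA experiment (-0.389 to 0.377, with 11 of 45). Between libraries of different number, the medians were -0.042 and -0.013. Libraries correlating best with their own number were 13 of 22 and 5 of 18. By chi-square per degree of freedom, replicates 1 and 2 were the closest pair in Cn-Ctl at 2 h (8.79, against 23.3 and 29.4 with replicate 3). The same pair was closest in SM-Cn-/- at 2 h (6.47, against 23.2 and 29.8), Cn-Ctl at 6 h, and SM-Cn-/- at 24 h. In SM-Cn-/- untreated and at 6 h, replicates 2 and 3 were closest. With the replicate number as a block, 7 of the 30 counts changed. Calls were lost for Ier3 in CsA at 24 h (adjusted p = 0.052), in CsA against WT untreated (0.064) and at 24 h (0.061), for Nfkbiz in CsA against WT at 2 h (0.073) and in CsA from 2 to 24 h (0.061), and for Icam1 in Cn-Ctl at 2 h (0.0505). Zfp36 gained one between the genotypes at 6 h (0.0403). The other 23 counts did not change. In the genotype experiment Rel had 3 reads in the lowest library, and a small difference in Rel was not detectable at that depth.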
